A study of Homo sapiens with 12 samples.

Results

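Baseline RNA levels in HEK293T cells were read from the 3 arrays of the shCTRL group, out of 12 arrays in the study. All genes with a usable name on the array were taken, which gave 18417 genes, each with 1 log2 signal per array. The study knocked down the ubiquitin ligase UBE4B and the histone demethylase LSD1, singly and together, with 3 arrays in each of 4 groups. No knockdown array enters the levels given here. The shCTRL cells were transfected with a plasmid of the pRS-RFP-C type that encodes a nontargeting shRNA, with Lipofectamine, and were lysed 78 h after transfection per the labels. The supplementary methods give a window of time in place of 1 value. The study describes all 4 groups on the arrays, shCTRL included, as expressing a misfolding mutant of SOD1 from a cotransfected plasmid, which the labels do not name. The control cells therefore carried transfection reagent, plasmid DNA, a short hairpin RNA and misfolded mutant SOD1, and are a control of the knockdown rather than untouched HEK293T cells. No array of cells without the mutant protein was analysed here, so its part in any level below was not tested, chaperone and stress genes included. The labels call the 3 arrays biological replicates, and nothing states whether they came from separate cultures, so the spread between them may be partly technical. Only RNA signal on arrays was used here, although the study also measured some proteins by western blot, and the number of arrays limits the precision.

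HEK293T is a human embryonic kidney line that carries adenovirus genes and the SV40 large T antigen. Its cell of origin is debated, because embryonic kidney cultures hold nephron progenitors, stroma and cells of the neural crest and adrenal lineage. Many proteins come as families of paralogs, of which a given cell type uses some and not others, and a marker gene is one whose expression is largely restricted to one lineage. No gene on this array is specific to HEK293T, and the viral genes were not analysed here. The label could only be set beside lists of lineage markers, kidney lists included, which do not establish the line.

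To say whether a gene was above background, families that should be silent in these cells served as references. The first level was the 95th percentile of 341 olfactory receptor genes, which are expressed in the nose, and stood at 6.28, 6.44 and 6.19 (log2 signal) on replicates 1, 2 and 3. The second level was the 95th percentile of 91 keratin-associated and bitter taste receptor genes, which belong to hair and taste cells, and stood at 8.35, 8.55 and 8.30, with 3 of the 91 genes above it on all arrays. A total of 12919 genes, or 70.1%, lay above the first level on all 3 arrays. The count above the second level on all 3 arrays was 6514 genes, or 35.4%. A further 6405 genes lay above the first level only, and 5498 genes did not clear the first level on every array. The families differ in signal among themselves, since the olfactory receptors had a median of 4.78, the 24 bitter taste receptor genes one of 5.10 and the 67 keratin-associated genes one of 6.38, and the reason was not tested. A gene between the levels may therefore be weakly expressed or silent, and only a gene above both levels is called clearly detected here. Cytosolic ribosomal protein genes, which every cell uses, served as the opposite reference. All 58 of them exceeded the first level and 55 exceeded both, with a median of 11.85. Probe sets differ in how strongly they bind, so the order of genes below is an order of array signals, averaged over the probes of a gene, and not of RNA copies. Members whose ranges over the 3 arrays overlap were treated as not separated.

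**Figure D1:**
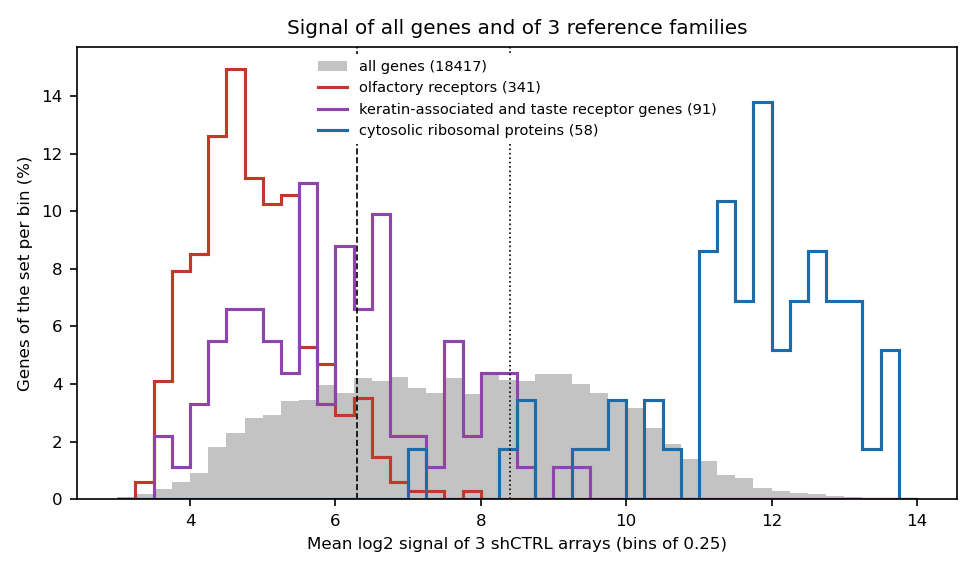
Share of genes (%) against the mean log2 signal of the 3 shCTRL arrays in bins of 0.25, for all 18417 genes (grey), 341 olfactory receptor genes (red), 91 keratin-associated and taste receptor genes (purple) and 58 cytosolic ribosomal protein genes (blue). The dashed and dotted lines are the means over the arrays of the first and the second level, and the ribosomal protein genes peak near 12 while the olfactory receptor genes peak below 5.

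The 20 brightest genes were of several kinds. GAPDH, a glycolytic enzyme, had a mean of 13.48 ± 0.07 (SD, n = 3), LDHA, which makes lactate, one of 13.36 ± 0.08, and ENO1, the ubiquitous enolase, one of 13.30 ± 0.01. The constitutive chaperone HSPA8 read 13.54 ± 0.09 and the elongation factor EEF1A1 13.28 ± 0.06. The beta tubulins TUBB and TUBB4B both read 13.23. PTMA, the gene of the acidic nuclear protein prothymosin alpha, read 13.82 ± 0.05, and H1-4, a linker histone, 13.77 ± 0.02. The ribosomal protein genes RPL5, RPS28, RPS2, RPS3 and RPS14 and the small RNA genes SNORD13, SNORD13P3, SNORD41 and RNU2-1 were also among the 20 brightest. Some of these places hung on which transcript cluster stood for the gene. FAF2, a membrane protein of endoplasmic reticulum degradation, read 13.82 ± 0.08, not separated from PTMA, while its other cluster read 11.29. The second cluster of RPS2 (13.54 in its brightest) read 12.73, below the 20th gene, RNU2-1 (13.10). PLCG2, a phospholipase known from blood cells, read 13.41 in one cluster and 7.60 in the other. Of 769 genes with more than 1 cluster, 138 had clusters more than 2 log2 units apart, with a median distance of 0.65 between the brightest and the dimmest.

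Among 247 measured marker genes of 17 lineages, 120 (48.6%) lay above the first level and 29 (11.7%) above both, against 70.1% and 35.4% of all genes. No lineage had most of its markers above both levels. The brightest single markers were VIM, INA, UCHL1, CDH2 and TFAP2A, which belong to the mesenchymal, neuronal and neural crest lists. By the share above both levels, each of the 17 lists was below the 35.4% of all genes, from 26.7% for kidney development down to 0. By the share above the first level, only kidney development (86.7%), neural crest and sympathoadrenal (73.3%) and muscle (72.7%) exceeded the 70.1% of all genes. The last 2 were close to it. No measured gene of the proximal tubule, distal nephron and collecting duct, adrenal cortex, endothelium, blood or liver lists was above both levels. Of 8 podocyte genes, 2 were above both.

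Kidney development genes were the list with the largest share above the first level among the 17. Of 15 measured members, 13 exceeded the first level and 4 both. That is 86.7% and 26.7%, against 70.1% and 35.4% of all genes. SIX2, the transcription factor that maintains nephron progenitors, read 9.83, 9.72 and 9.58 on the 3 arrays. HOXD11, which patterns the metanephric kidney, read 9.72, 9.84 and 9.57. The ranges of these genes overlapped, and both lay more than 1 log2 unit above the second level on each array. EYA1, the coactivator that works with SIX2, read 8.47, 8.78 and 9.17, and CITED1, another progenitor marker, read 8.41, 8.83 and 8.72. SALL1 was above the second level on 2 of 3 arrays with a mean of 8.53 ± 0.03. WT1 read 8.25 ± 0.10, PAX2 7.16 ± 0.01 and PAX8 7.02 ± 0.17, all between the levels, and OSR1, at 6.18, was not above the first level.

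Markers of differentiated nephron segments were different. None of 12 proximal tubule genes and none of 20 distal nephron and collecting duct genes lay above both levels, and 5 and 7 of them lay above the first. The megalin gene LRP2 read 6.76, 7.18 and 7.14, while its partner in protein uptake, cubilin (CUBN), read 5.55, 5.63 and 5.40. SLC12A1, the sodium cotransporter of the thick ascending limb, stood at 4.71 and the sodium channel subunit SCNN1A at 6.15. AQP3, a water channel of the collecting duct, was the brightest distal gene with a mean of 7.81 ± 0.13. Of 8 podocyte genes, CD2AP read 10.45 ± 0.14 and PODXL 9.87 ± 0.05, above both levels, whereas the slit diaphragm gene NPHS1 read 6.20, 6.38 and 6.20. CD2AP, an adaptor of the actin cytoskeleton, and PODXL, a sialomucin also made by stem cells, are expressed outside podocytes.

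Neuronal genes were detected in part. Of 31 measured, 18 lay above the first level and 5 above both. That is 58.1% and 16.1%, below the 70.1% and 35.4% of all genes. INA, the intermediate filament alpha-internexin, read 10.89, 10.83 and 10.64. UCHL1, an abundant neuronal deubiquitinase, read 10.67, 10.59 and 10.75. These ranges overlapped, and the genes stood at percentiles 94.6 and 93.8 of all genes. STMN3 (9.54 ± 0.08), a tubulin binding stathmin, the light neurofilament NEFL (9.43 ± 0.17) and the neuronal enolase ENO2 (8.73 ± 0.23) followed. The synaptic genes were lower. SYT1, the calcium sensor of vesicle release, and SYP, a vesicle membrane protein, were above the second level on 2 of 3 arrays each, with means of 8.59 ± 0.21 and 8.39 ± 0.03. SYN1 stood at 7.22 and SNAP25 at 6.48. MAP2, a dendritic microtubule protein, stood at 5.27, DCX, a marker of migrating neuroblasts, at 5.81, and ELAVL4, a neuronal RNA binding protein, at 5.08, none of them above the first level.

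Of 15 neural crest and sympathoadrenal genes, 11 exceeded the first level and 3 both. TFAP2A, a transcription factor of the neural crest, read 10.77, 10.55 and 10.59. GATA2 followed at 8.72 ± 0.05 and HAND1 at 8.61 ± 0.10. The enzymes that make catecholamines lay between the levels, with TH at 7.25 ± 0.24 and DBH at 6.64 ± 0.16, and SLC6A2, the noradrenaline transporter, was above the first level on only 1 array. In the adrenal cortex list 2 of 9 genes exceeded the first level and 0 both. The steroidogenic regulator NR5A1 read 6.37, 6.25 and 6.30 and cleared the first level on 2 arrays. CYP17A1, at 5.79, and the corticotropin receptor MC2R, at 5.05, did not clear it. Of 9 glial genes 4 exceeded the first level, and SLC1A3, a glutamate transporter, read 9.20, 9.16 and 9.24, above both. OLIG1 was the other glial gene above both levels (8.57 ± 0.07), while SLC1A2 (5.32) and AQP4 (5.40), which mark astrocytes, were not above the first.

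Mesenchymal genes stood above epithelial ones at the top of their lists. Of 22 mesenchymal genes, 15 (68.2%) exceeded the first level and 5 (22.7%) both, against 70.1% and 35.4% of all genes. VIM, the intermediate filament vimentin, read 11.34, 11.12 and 11.35. CDH2, or N-cadherin, read 10.71, 10.61 and 10.64. The transcription factors ZEB2 (9.54 ± 0.05), SNAI2 (9.47 ± 0.14) and ZEB1 (8.58 ± 0.07), which repress epithelial genes, were the others above both levels. The extracellular matrix genes of fibroblasts were divided, and none was above both levels. COL1A1 (8.15 ± 0.10), FN1 (7.72 ± 0.25), COL3A1 (6.71 ± 0.12) and COL1A2 (6.54 ± 0.07) lay between the levels, while DCN stood at 4.66, LUM at 4.58 and POSTN at 4.42. Of 25 epithelial genes, 15 (60.0%) exceeded the first level and 3 (12.0%) both. The desmosome gene DSP read 9.32, 9.15 and 9.39, the keratin KRT18 8.84, 9.20 and 9.23, and the splicing regulator ESRP2 8.43, 8.56 and 8.33. ESRP2 cleared the second level, at 8.35, 8.55 and 8.30 on these arrays, only narrowly. CDH1, or E-cadherin, read 6.77, 6.87 and 7.06, above the first level and below the second. EPCAM, an adhesion molecule of epithelia, read 6.59, 6.19 and 6.94 and fell below the first level on replicate 2. GRHL2 (5.49) and RAB25 (5.30) were not above the first level on any array.

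Markers of endothelium, blood and liver were mostly below the first level. Endothelium had 2 of 11 genes above the first level, blood 4 of 14 and liver 1 of 10, with 0 above both in each. PECAM1 read 5.51, 5.54 and 5.39 in the endothelial list, PTPRC 4.66, 4.42 and 4.33 in the blood list, and ALB 5.01, 5.22 and 5.04 in the liver list. The brightest gene of the blood list, KLF1, reached 7.79 ± 0.17 and stayed below the second level. Of 14 germline and cancer-testis genes PRAME alone exceeded a level, with 8.48, 8.60 and 8.77, above both. Of 12 genes of pluripotency and the early embryo, 5 exceeded the first level, and LIN28B, which blocks maturation of let-7 microRNAs, was above both with 9.12, 8.87 and 9.34. SOX2 read 8.26 ± 0.05 and the telomerase gene TERT 8.46 ± 0.14, while ZFP42 (4.83), DPPA2 (4.53) and L1TD1 (4.30) were below the first level on every array. Of 11 muscle genes 8 (72.7%) exceeded the first level and 2 (18.2%) both, against 70.1% and 35.4% of all genes. NKX2-5 (9.28 ± 0.08), a heart factor, and ACTA1 (9.00 ± 0.14), skeletal actin, were above both levels, while MYOD1 stood at 6.57 and MYF5 at 5.54. The colon epithelium list, kept because the study also used a colon line, had 5 of 9 genes above the first level and 1 above both. CDX2 read 9.37, 9.31 and 9.17, while CDH17, which CDX2 is known to activate, read 4.79, 4.83 and 4.67.

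**Figure D2:**
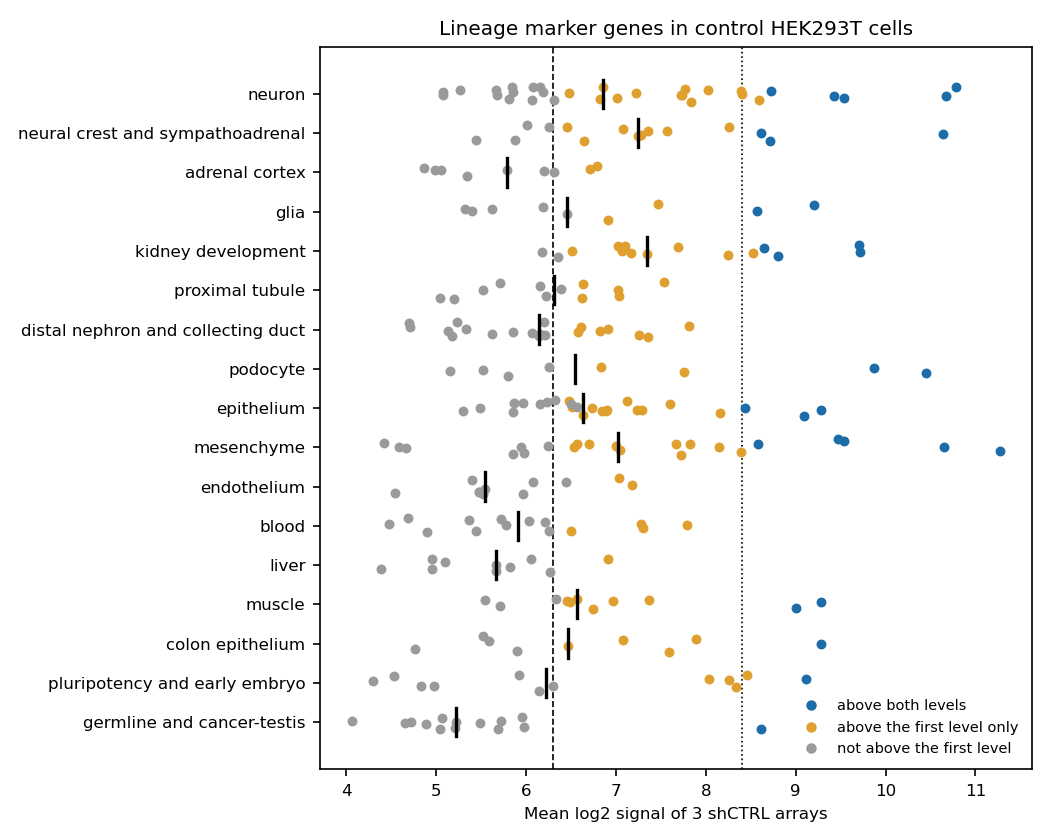
Mean log2 signal of the 3 shCTRL arrays (horizontal) for 17 lists of lineage markers (vertical), 1 point per gene, with the median of a list as a black bar. Colours give the class of a gene, the dashed and dotted lines the first and the second level, and the points right of the dotted line are led by VIM, INA, UCHL1, CDH2 and TFAP2A.

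HOX genes encode the homeodomain factors that set position along the body axis, and their paralog groups run from anterior (group 1) to posterior (group 13). In control HEK293T cells 25 of 27 measured HOX genes lay above the first level and 10 above both. That is 92.6% and 37.0%, against 70.1% and 35.4% of all genes. The HOXA cluster was represented by HOXA2 only. Of 10 HOXB genes all exceeded the first level, as did 6 of 7 HOXC and 8 of 9 HOXD genes, with 4, 2 and 4 above both. HOXB9 was the brightest with 11.86, 11.81 and 11.85. HOXD10 (11.27, 11.33 and 11.17) and HOXD13 (11.26, 11.26 and 11.13) were next and overlapped each other. These 3 genes lay more than 1 log2 unit above HOXD11 (9.71 ± 0.13), which was followed by HOXC10 (9.25 ± 0.08) and, with overlapping ranges, HOXC13 (9.04 ± 0.03) and HOXD9 (8.99 ± 0.09). HOXB6, HOXB5 and HOXB8 completed those above both levels, at 8.89, 8.82 and 8.59.

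Posterior HOX genes held the extremes. Of 12 genes of groups 9 to 13, 7 were above both levels and the median was 9.01. Of 15 genes of groups 1 to 8, 3 were above both and the median was 8.17. The only measured HOX genes not above the first level were in group 12, HOXC12 (5.61, 5.87 and 5.63) and HOXD12 (5.39, 5.86 and 5.35). HOXD12 lies between HOXD11 and HOXD13 in its cluster, both of which were above both levels on every array. HOXB13, a far posterior gene, read 7.94 ± 0.04, and HOXB7 read 7.54 ± 0.15, near the anterior genes HOXD1 (7.60 ± 0.18) and HOXD3 (7.34 ± 0.11). HOXA2, HOXB2, HOXB4, HOXD4, HOXC8, HOXB3, HOXC11, HOXD8 and HOXC9 lay within 7.94 to 8.41, and HOXC5 and HOXB1 were lower at 7.17 and 7.07.

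**Figure D3:**
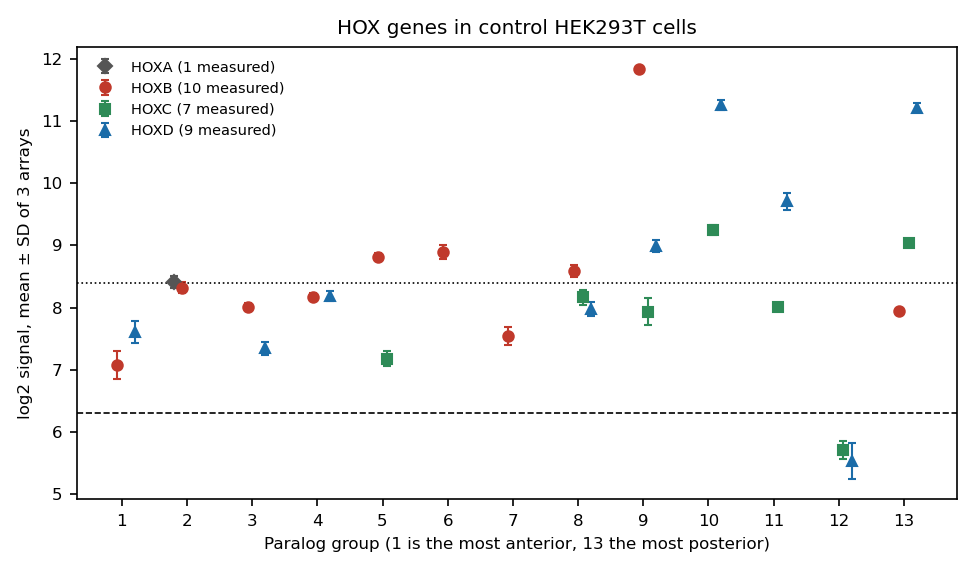
Log2 signal of 27 HOX genes (mean ± SD of 3 shCTRL arrays) against paralog group, with clusters as symbols. The dashed and dotted lines are the first and the second level; HOXB9, HOXD10 and HOXD13 stand above 11 and HOXC12 and HOXD12 lie below the first level.

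Paralog use was read from 114 families, of which 106 had 2 or more measured members. In 97 of these the brightest member was above the second one on all 3 arrays with no overlap of ranges. The median gap between the first and second member was 1.20 log2 units, and it exceeded 2 in 31 families. A gap to a member near background is a distance to probe background rather than to a measured level, and in 7 of the 31 the second member was not above the first level, in 18 it was above the first only and in 6 above both. In 57 families every measured member was above the first level, in 10 families 1 member was, and among ryanodine receptors, the calcium release channels of muscle, none was. Of 345 pairs of neighbours in the order of signals, 85 overlapped.

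Energy metabolism showed wide gaps. PGK1, the phosphoglycerate kinase of most tissues, read 11.82, 11.82 and 12.04, while its testis paralog PGK2 read 4.35, 4.64 and 4.68. PGK2 was below the first level on every array, so the distance between them has no measured lower end. ENO1 exceeded the neuronal ENO2 by 4.57, and the muscle enolase ENO3 (6.18, 6.26 and 6.25) was above the first level on 1 array. LDHA (13.36) and LDHB (12.19) were both bright, with LDHC, of testis, at 6.51. Of the hexokinases HK2 read 9.45, 9.96 and 9.86 and HK1 8.45, 8.67 and 8.58, with HK3 and HKDC1 below the first level. PKM read 11.08 ± 0.04 and PKLR, of liver and red cells, 6.51 ± 0.22. The phosphofructokinases were close together, with PFKM at 9.71, PFKL at 9.45 and PFKP at 9.16, and PFKL and PFKP overlapped. SLC2A1 was the leading glucose transporter with 10.32, 10.64 and 10.49.

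Subunits of the respiratory chain with tissue forms followed one pattern, in that no form of heart, lung, muscle or testis led. COX6A1 read 12.31 ± 0.02 against 7.70 ± 0.16 for the heart form COX6A2, and COX4I1 10.35 ± 0.04 against 6.56 ± 0.09 for the lung form COX4I2. COX8A read 11.73, 11.76 and 11.65, and COX8C, of testis, 6.10, 6.06 and 5.76. COX6B1 (10.55 ± 0.11) and COX6B2 (5.80 ± 0.01) differed likewise. COX7A2L (10.04 ± 0.02) stood above COX7A2 (9.64 ± 0.20) with no overlap of ranges. These genes were above both levels and COX7A1, of heart and muscle, was not above the first. The ADP/ATP carrier SLC25A5 read 12.57 ± 0.02 and the heart carrier SLC25A4 9.98 ± 0.15, with the testis carrier SLC25A31 at 5.04. CKB, the brain creatine kinase, read 11.26 ± 0.03 and CKM, of muscle, 6.48 ± 0.08. UCP2 (10.48 ± 0.07) led the uncoupling proteins and UCP1, of brown fat, stood at 5.30.

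In the cytoskeleton, ACTG1 (12.95, 12.91 and 12.91) exceeded ACTB (12.79, 12.72 and 12.78) on every array. TUBB and TUBB4B could not be separated. TUBB6 (10.43), TUBB4A (9.80), TUBB2B (9.10) and TUBB2A (8.81) were above both levels and TUBB1, of platelets, at 6.65 was not. TUBA1C (11.68 ± 0.17) led the alpha tubulins. Tubulin and actin genes are near copies of each other and of pseudogenes, so signal may be shared between their probe sets. Of the lamins, LMNB2 read 11.36 ± 0.04, LMNB1 9.61 ± 0.08 and LMNA, which rises with differentiation and tissue stiffness, 8.43 ± 0.04. VIM (11.27 ± 0.13) was the type III filament above both levels, and DES (6.97 ± 0.17), GFAP and PRPH lay between the levels. MYH10 (10.83 ± 0.06) led the nonmuscle myosins over MYH9 (10.17 ± 0.04).

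Of 39 members of cell cycle families 37 (94.9%) exceeded the first level and 28 (71.8%) both, against 70.1% and 35.4% of all genes. CCND2 (11.34, 11.58 and 11.48) led the D cyclins over CCND3 (10.14 ± 0.05) and CCND1 (9.89 ± 0.17). CDK4 read 11.95 ± 0.03 and CDK6 9.41 ± 0.13. CCNA2, the A cyclin of dividing somatic cells, read 11.35, 11.16 and 11.29, and CCNA1, the germline A cyclin, 6.23, 6.46 and 6.48. The E cyclins CCNE2 and CCNE1 overlapped at 9.69 and 9.51. The inhibitor CDKN2A, which lies upstream of the RB protein, was bright at 10.38, 10.55 and 10.45, and CDKN1B (10.06 ± 0.13) led the CIP/KIP inhibitors over CDKN1A (8.44 ± 0.17) and CDKN1C (8.33 ± 0.17), which overlapped. Of the E2F factors, E2F4, a repressor known from resting cells, read 10.58 ± 0.06 and stood above E2F1 (10.29 ± 0.06), an activator of S phase genes. MYC read 9.98, 10.13 and 10.17, against 7.36 for MYCL and 7.03 for MYCN. MCL1 (10.24 ± 0.05) and BCL2L1 (8.91 ± 0.02) were the survival genes above both levels, and BCL2 stood at 7.13 ± 0.20.

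Of 31 members of chromatin families 28 (90.3%) exceeded the first level and 22 (71.0%) both, against 70.1% and 35.4% of all genes. In 5 of 11 families with 2 or more measured members every one was above both. DNMT1, which maintains DNA methylation, read 11.04 ± 0.05, while the de novo enzymes DNMT3B (8.34 ± 0.07) and DNMT3A (8.25 ± 0.18) overlapped and DNMT3L was not above the first level. EZH2 read 10.51 ± 0.10 and EZH1 9.25 ± 0.13. SMARCA4 (10.03 ± 0.12) exceeded SMARCA2 (8.03 ± 0.08). All 4 class I deacetylases were above both levels, from HDAC1 at 11.59 to HDAC8 at 10.27. TET1 (9.75, 10.00 and 10.11) led TET2 (9.54 ± 0.06) and TET3 (8.05 ± 0.13). Of the genes that the study targeted, KDM1A, which encodes LSD1, read 10.91, 10.83 and 10.96 and its paralog KDM1B 9.12 ± 0.04, and UBE4B read 10.39, 10.38 and 10.28, below its paralog UBE4A (10.96 ± 0.03). SOD1 read 11.86, 11.68 and 11.74, at rank 243 of 18417, and the part of the transfected mutant SOD1 in it was not tested.

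RNA binding families included several genes known from embryonic or cancer cells. IGF2BP1, an oncofetal RNA binding protein, read 11.54, 11.53 and 11.54, and its paralogs IGF2BP2 (9.28 ± 0.13) and IGF2BP3 (8.71 ± 0.15) were also above both levels. LIN28B stood above both levels and LIN28A (6.12, 6.16 and 6.17) above neither. PTBP1, the splicing repressor of non-neuronal cells, read 12.50 ± 0.02, while PTBP2, its neuronal paralog, read 10.55 ± 0.09. ELAVL1, the widely expressed HuR, read 11.23 ± 0.04, the neuronal ELAVL2 7.84 ± 0.11, and ELAVL3 and ELAVL4 were not above the first level. EEF1A1 exceeded EEF1A2 (9.79 ± 0.13) by 3.49. Of the cytosolic HSP90 genes HSP90AB1 (12.77 ± 0.06) led HSP90AA1 (12.11 ± 0.09). RPL22L1 (8.02 ± 0.16) stood above RPL22 (7.15, 6.68 and 7.58), the dimmest ribosomal protein gene on these arrays.

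At the cell surface CDH2 was the classical cadherin above both levels, CDH1 and CDH3 lay between them, and CDH5 of endothelium stood at 5.52. ITGAV (9.45 ± 0.02), ITGA5 (9.05 ± 0.16) and ITGB1 (9.05 ± 0.17), subunits of fibronectin and vitronectin receptors, were the integrins above both levels. SDC2 (9.95 ± 0.10) led the syndecans. IGF1R (9.92 ± 0.11) exceeded INSR (7.86 ± 0.02). Of the FGF receptors FGFR1 (8.95, 9.04 and 9.03) and FGFR3 (9.01, 8.86 and 8.79) overlapped. ERBB2 (8.58 ± 0.03) stood above EGFR (7.54 ± 0.22). NOTCH2 (9.75 ± 0.09) led its family. All 10 frizzled receptors, which bind WNT proteins, exceeded the first level, against 70.1% of all genes, with FZD6 (9.29 ± 0.10) the brightest of them.

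Receptors and channels matter in this line because it is a common host for expressing them. Of 71 members of the receptor families and their G proteins and cyclases, 41 (57.7%) exceeded the first level and 14 (19.7%) both, against 70.1% and 35.4% of all genes. None of the 5 muscarinic receptors was above both levels, with CHRM4 the brightest at 7.60, 7.72 and 7.35. Of the adrenergic receptors ADRA2C was the exception with 9.68, 9.70 and 9.72, and ADRB1 read 7.86 ± 0.06. None of 5 dopamine receptors, 6 P2Y receptors, 6 P2X channels, 4 S1P receptors or 5 LPA receptors was above both levels, and P2RY1 (8.27 ± 0.07) and S1PR2 (8.42 ± 0.27) came nearest. Downstream of them, 12 of 13 G protein alpha subunits exceeded the first level, led without separation by GNAS (10.58 ± 0.04) and GNA11 (10.53 ± 0.10), and ADCY3 (10.03 ± 0.12) led the adenylyl cyclases.

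Of 70 channel genes 38 (54.3%) exceeded the first level and 8 (11.4%) both, again against 70.1% and 35.4% of all genes. Among them, 2 of 8 voltage-gated sodium channels and 5 of 10 voltage-gated calcium channels exceeded the first level and 0 both, with SCN8A at 7.63 ± 0.04 and CACNA1H at 7.87 ± 0.12. Some channels of other kinds were above both levels. PIEZO1, a mechanically gated channel, read 9.30, 9.49 and 9.19, and PIEZO2, of sensory neurons, 6.01, 6.00 and 5.95. LRRC8A (9.96 ± 0.05), the obligatory subunit of the volume-regulated anion channel, led its family, as did TRPM7 (9.27 ± 0.25) and ANO6 (10.39 ± 0.14), a lipid scramblase. The acid-sensing channel ASIC1 read 8.99, 9.21 and 9.33. TRPC1 (8.49 ± 0.22) was the only 1 of 5 TRPC channels above the first level. The SERCA pump ATP2A2 read 11.66 ± 0.01 and the muscle pump ATP2A1 6.82 ± 0.11. Store-operated calcium entry genes STIM1 (8.69 ± 0.10) and ORAI1 (8.71 ± 0.09) overlapped.

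**Figure D4:**
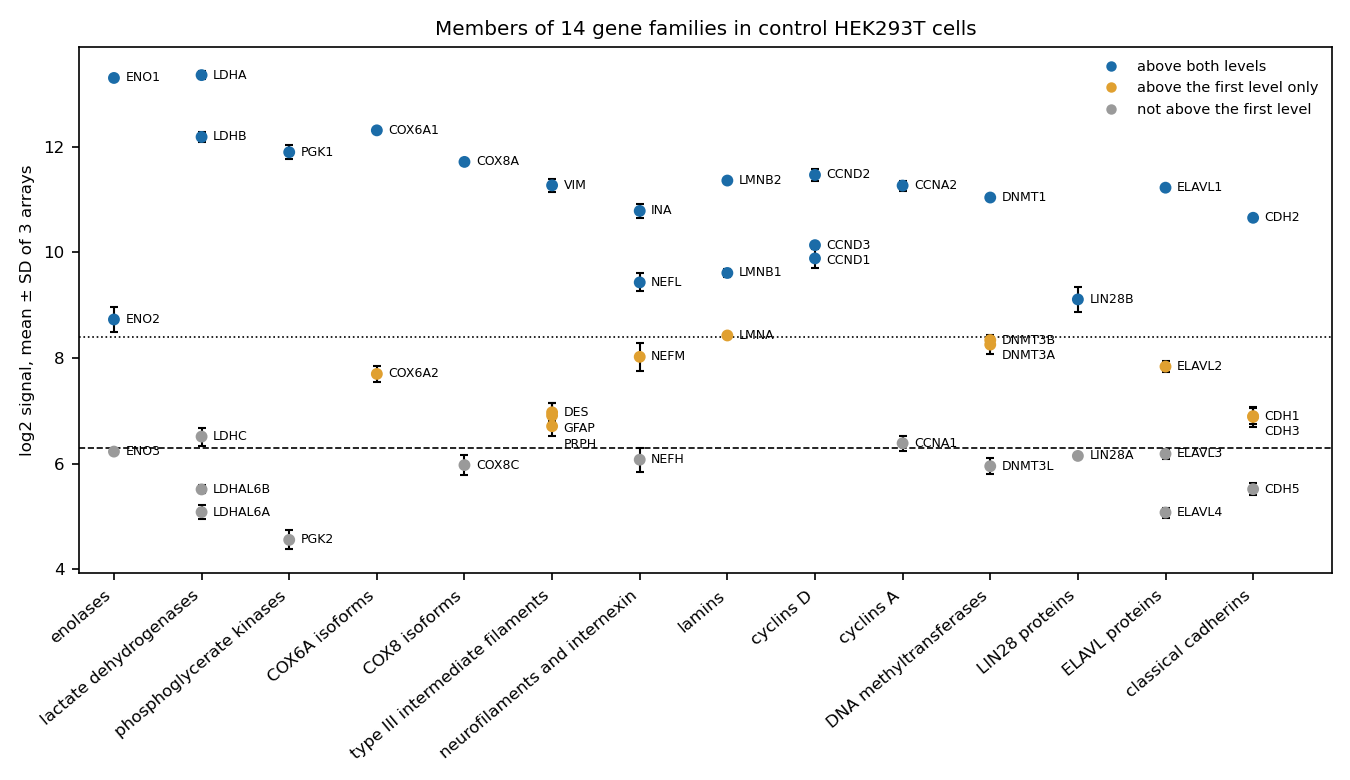
Log2 signal (mean ± SD of 3 shCTRL arrays) of the members of 14 gene families, 1 column per family. Colours give the class of a gene and the dashed and dotted lines the first and the second level; PGK1 stands at 11.90, and PGK2, at 4.56, is below the first level.

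Promoters of the genes were set beside these levels, since many widely used genes start in stretches rich in the dinucleotide CG. The 250 bases before the start were taken from RefSeq (GRCh38.p14) and matched by symbol for 14239 genes, and the letters CG, which read the same on both strands, were counted, with the mean over starts for genes with several. Genes above both levels had a median of 22 CG, those above the first level only 18, and those not above the first level 5. At least 10 CG were found in 94.6%, 78.9% and 33.9% of them, against 72.5% of all 14239 genes. Without the reference families the last class had a median of 6 CG, with at least 10 in 36.8%. These are descriptions over genes, which are not independent.

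The sequences of 2 pairs of paralogs are printed because their signals are far apart and their CG counts run in opposite directions. CG is in capitals and each reads 5′ to 3′ along the gene. PGK1 (chrX:78103998-78104247, plus strand) holds 32 CG and PGK2 (chr6:49787286-49787535, minus strand) 4. CCNA2 (chr4:121823884-121824133, minus strand) holds 20 CG, fewer than CCNA1 (chr13:36431705-36431954, plus strand) with 31.
PGK1: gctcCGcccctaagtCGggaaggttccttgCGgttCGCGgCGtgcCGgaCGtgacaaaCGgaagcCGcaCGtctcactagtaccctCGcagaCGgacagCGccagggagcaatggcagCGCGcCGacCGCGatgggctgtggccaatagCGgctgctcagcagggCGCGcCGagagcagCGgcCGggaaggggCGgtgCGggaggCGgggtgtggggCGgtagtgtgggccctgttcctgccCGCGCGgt
PGK2: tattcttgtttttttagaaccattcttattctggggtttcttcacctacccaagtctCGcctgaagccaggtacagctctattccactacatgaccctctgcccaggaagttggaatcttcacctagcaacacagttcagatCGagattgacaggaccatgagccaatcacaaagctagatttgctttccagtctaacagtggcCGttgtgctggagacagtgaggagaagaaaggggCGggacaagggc
CCNA2: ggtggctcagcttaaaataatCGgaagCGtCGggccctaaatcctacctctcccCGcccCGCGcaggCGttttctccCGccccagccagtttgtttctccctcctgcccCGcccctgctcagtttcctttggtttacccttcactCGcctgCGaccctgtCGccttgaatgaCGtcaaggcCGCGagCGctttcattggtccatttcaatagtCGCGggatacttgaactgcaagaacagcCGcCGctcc
CCNA1: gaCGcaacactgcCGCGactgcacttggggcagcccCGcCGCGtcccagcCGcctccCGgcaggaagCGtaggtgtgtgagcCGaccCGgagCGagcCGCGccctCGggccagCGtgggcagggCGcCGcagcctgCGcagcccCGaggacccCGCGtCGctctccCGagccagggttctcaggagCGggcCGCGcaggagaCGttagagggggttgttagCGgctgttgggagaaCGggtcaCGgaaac
In the first pair the bright gene has the CG-rich promoter. In the second pair the gene that did not clear the first level on all arrays is the richer one. COX6B2, not above the first level, likewise held 26 CG against 14 for COX6B1, whereas COX8A held 16 against 8 for COX8C. PIEZO1 and PIEZO2 held 36 and 29. A count of CG in this window was thus high in several genes with low signal.

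The 3 control arrays were close, with correlations across genes of 0.993 to 0.996. The median SD of a gene was 0.114 log2 units, and it was lower for genes above both levels (0.0929) than for genes above the first only (0.128). The control group had a larger median SD than the other groups, with no test run, since theirs was 0.0746 for shLSD1, 0.0721 for shUBE4B and 0.0883 for the double knockdown. Replicate 2 was the array farthest from the median of the 3 in 46.0% of genes, against 24.9% for replicate 1 and 29.0% for replicate 3. In 23 genes the arrays spanned more than 1 log2 unit.

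Among genes above the first level the widest range was that of SLC2A3, a glucose transporter induced in low oxygen, with 6.76, 7.34 and 8.19. HSPA6, a strictly stress-inducible HSP70 gene, was next with 8.74, 7.48 and 7.32, high on replicate 1 only. SGPP2, a sphingosine phosphate phosphatase (6.53, 6.97 and 7.80), TFPI, an inhibitor of coagulation (7.02, 6.76 and 7.84), and the orphan receptor GPR50 (7.82, 8.03 and 8.87) were highest on replicate 3. ZNF204P, KRCC1, GNPDA2, ALG1L1P and the small RNA SCARNA9 were lowest on replicate 2, with SCARNA9 at 9.73, 8.64 and 9.54.

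Lists of cell state genes showed which kinds of genes moved between control arrays. All 24 mitosis genes and all 21 genes of DNA replication were above the first level, with 22 and 20 above both. The shares over all genes were 70.1% and 35.4%. Mitosis genes were lowest on replicate 2 in 21 of 24 cases, with a median difference of -0.27 from the mean of the other arrays. Over all genes the count was 6699 of 18417, and over genes above both levels 3480 of 6514. HMMR, a spindle protein, read 9.28, 8.49 and 9.26, TTK, a spindle checkpoint kinase, 10.11, 9.43 and 10.01, and CDK1 9.64, 9.23 and 9.84. Replication genes were lowest there in 16 of 21 cases, with a median of -0.14, and RRM2, a ribonucleotide reductase subunit, read 8.56, 7.88 and 8.35. All genes above both levels were also slightly lower on replicate 2, with a median of -0.06. Ribosomal protein genes had a median of -0.09 and were lowest there in 42 of 58 cases, a share near that of the replication genes. After a further quantile normalization the mitosis difference was -0.18 and that of replication genes -0.06.

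Stress lists differed between arrays in other ways. Hypoxia and glycolysis genes were lowest on replicate 1 in 15 of 19 cases and highest on replicate 3 in 13. Over all 18417 genes these counts were 5684 and 5750. PDK1, which holds back pyruvate oxidation, read 9.58, 9.95 and 10.47, NDRG1 9.71, 10.21 and 10.29, and P4HA1, a collagen prolyl hydroxylase, 8.89, 8.96 and 9.41. Of 11 heat shock genes 8 were highest on replicate 1, against 5321 of all 18417 genes and 2589 of the 6514 above both levels. The cochaperone DNAJB1 read 11.01, 10.62 and 10.44, with the same order of arrays as HSPA6. HSPB1 was the opposite with 9.35, 9.47 and 9.89. The immediate early gene EGR1, induced within minutes of a stimulus, read 8.98, 9.02 and 9.74. In the oxidative phosphorylation list COX7B had the widest range, with 9.90, 8.87 and 9.62. The single genes given for a list were among its 3 members with the widest range. That the median differences of the lists were smaller follows from this choice. With 3 arrays of 1 group the differences were not tested.

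**Figure D5:**
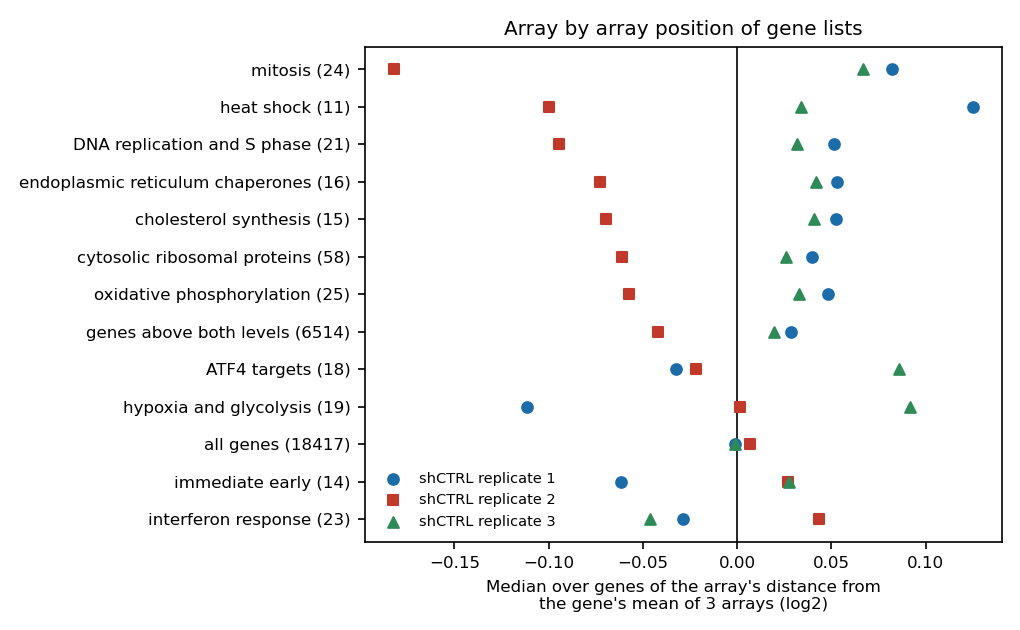
Median over the genes of a list (number of genes in brackets) of the distance in log2 units between an array and the mean of the 3 shCTRL arrays of the same gene, with 1 symbol per array. Mitosis genes stand lowest on replicate 2, at -0.18, and hypoxia genes lowest on replicate 1, at -0.11.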

How the data were processed

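RNA of 12 samples was hybridized to Affymetrix Human Gene 1.0 ST arrays, and the 3 shCTRL arrays were used for levels. The authors deposited log2 signals, 1 per transcript cluster and array, on genome build hg19, and the labels name RMA and Partek. RMA subtracts background, brings all arrays to one distribution by quantiles and summarises the probes. Versions of Partek and RMA are not given in the sources used here. The labels name a whole-transcript labelling kit and the supplementary methods another, so which kit was used is not settled. Quantile normalization removes differences in total RNA between arrays.

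Of 33297 clusters, 21214 had a name, 1754 of them several symbols, and 12083 had none. Symbols were updated through a RefSeq gene table (GRCh38.p14) used for names only, and 27 could not be updated. The brightest cluster over the 3 arrays stood for a gene. The 95th percentile of each reference family was taken on each array, and a gene was above a level if it exceeded it on all 3 arrays. No test was run, since 1 group was described. The procedure was checked on simulated data.

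Named were the 20 brightest genes, the 4 brightest members of a lineage list and members given as absent, every HOX gene above the first level, every member of a family of up to 10 members and the 4 brightest of a larger one, the 10 genes with the widest range above the first level, and the 3 members of a cell state list with the widest range. From this pool the text gives a selection. Outside the pool it also names SOD1 and further members of lineage and cell state lists, such as WT1, TH, COL1A1, USP18, DHCR7 and PHGDH. HOXC12 and HOXD12 and some dim list members were named after their values were seen. The members, the 145 lists and the rules were chosen with earlier results of these data known. Genes absent from the tables were not analysed here. Alternatives were each array left out, the mean of all clusters, the brightest cluster over all 12 arrays, arrays centred on their median or quantile-normalized once more, the 99th percentile of olfactory receptors, the second level, and a filter on dim genes. Python 3.11.15, NumPy 2.4.6, pandas 2.3.3 and matplotlib 3.10.9 were used.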

Additional observations from a re-analysis of the deposited data

How the results depend on the processing

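The first level decides how many genes count as detected. With the second level in its place, the count fell from 12919 to 6514 genes, all lineage markers from 120 to 29 and HOX genes from 25 to 10. The lineage lists then had 5 neuronal, 3 neural crest, 0 adrenal cortex, 2 glial, 4 kidney development, 0 proximal tubule, 0 distal nephron, 2 podocyte, 3 epithelial, 5 mesenchymal, 0 endothelial, 0 blood, 0 liver, 2 muscle, 1 colon and 1 pluripotency gene. With the 99th percentile of olfactory receptors, adrenal cortex had 0 genes, proximal tubule 2, distal nephron 3, epithelium 8, liver 0 and muscle 3. The brightest member of a family changed without replicate 2 (ORAI1 to STIM1), without replicate 3 (PDK1 to PDK3, TUBB to TUBB4B) and with the mean of clusters (VDAC2 to VDAC3, TUBB to TUBB4B), and in 0 families without replicate 1.

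Differences of cell state lists on replicate 2 were small and several moved. A further quantile normalization gave -0.0615 for replication genes (-0.14 before), 0.0248 for ATF4 targets (-0.03), -0.0312 for endoplasmic reticulum chaperones (-0.11), -0.0317 for cholesterol synthesis (-0.10), -0.00848 for interferon genes (0.07) and 0.0027 for oxidative phosphorylation (-0.09). Median-centred arrays gave -0.0116 for immediate early genes (0.04), 0.0129 for interferon genes and -0.0497 for hypoxia genes (0.00265). With only members above the first level, interferon genes gave -0.114. Leaving out replicate 1 or 3 gave -0.119 to 0.0415 for ATF4 targets, -0.0803 to 0.106 for hypoxia genes, -0.00498 to 0.0533 for immediate early genes and 0.00961 to 0.0735 for interferon genes. The cause was not tested. The mitosis difference kept its sign in each alternative run. Of the levels of single genes, 36 moved by more than 1 SD, with the mean of clusters in each case. Leaving out 1 of 3 arrays cannot move a mean that far, so those settings say nothing about single genes. No paired analysis was possible because the values come from no test and from 1 group. A signal near the reference levels cannot be told apart from background, and 3 arrays give a coarse SD.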

Other observations

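Of 8 measured Toll-like receptors, which sense microbial products, TLR9 alone lay above the first level, with 6.72, 6.68 and 6.69, and TLR3, a sensor of double-stranded RNA, read 4.51, 4.83 and 4.80. Of 23 interferon response genes 7 exceeded the first level and 3 both, against 70.1% and 35.4% of all genes. The latter were USP18 (8.92 ± 0.14), IFI6 (8.67 ± 0.14) and IFITM2 (8.63 ± 0.11). ISG15 read 6.66, 6.84 and 6.68. RIGI, a cytosolic RNA sensor, stood at 6.89, OAS1 at 5.76 and IFIH1 at 4.84. IFI44L read 5.79, 5.77 and 6.45, above the first level on replicate 3 only. These cells had received plasmid DNA and a hairpin RNA, whose part in these levels was not tested.

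All 16 endoplasmic reticulum chaperone genes and all 15 cholesterol synthesis genes exceeded the first level, with 13 of each above both, against 70.1% and 35.4% of all genes. The part of the mutant SOD1 in the chaperone levels was not tested. HSP90B1 led the former at 12.66 ± 0.06 and DHCR7, the last enzyme of cholesterol synthesis, the latter at 11.59 ± 0.07. Of 18 ATF4 target genes 17 exceeded the first level and 11 both, led by ATF4 itself (12.23 ± 0.07) and the serine synthesis gene PHGDH (11.96 ± 0.10).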
